A study of Homo sapiens with 4 samples.

Results

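The genes described here are 45 genes of the hypoxia response and of glycolysis, chosen by name from known targets of the hypoxia-inducible factors (HIFs) and from the glycolytic pathway. All 45 were found among the 58735 genes that the authors counted. They were measured by RNA-seq in MHCC-97H cells, an established metastatic hepatocellular carcinoma (HCC) line, with 1 library for each of 4 treatments. All recipient cells carried the wild-type genotype and were harvested after 24 h. The library labelled PBS came from cells given the vehicle alone. The other libraries came from cells given 2 μg of migrasomes (Migs), large vesicles that migrating cells shed from their retraction fibers. Normo-Migs were shed by MHCC-97H cells kept in normoxia, hypo-Migs by the same line kept in hypoxia, and CD147KO-Migs by a CD147-knockout derivative kept in hypoxia. Hypoxia and the knockout therefore concern the donor cells of the Migs. The labels do not state at which oxygen level, or in which of the glucose concentrations named for the line, the recipient cells were held. CD147 was deleted only in donor cells, so its RNA in these recipients cannot check the knockout, and the labels put all libraries in batch 1.

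When oxygen falls, prolyl hydroxylases of the EGLN family stop marking the HIF alpha subunits for VHL-dependent degradation. The stabilized subunits pair with ARNT and bind a short core motif in hypoxia response elements. Their targets move cells toward glucose uptake, lactate output, acid export and less mitochondrial respiration, and this set of genes is widely used as a readout of HIF activity in liver cancer. Many of the same genes also respond to glucose supply, growth signals and MYC, so their RNA is not a measure of oxygen alone.

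The bases just before the start of transcription were examined for the core motif ACGTG or GCGTG on either strand (a CACGTG counts on both strands). RefSeq promoter windows on GRCh38.p14, from 250 bases before to 50 bases after a start, were matched to 41 of the 45 genes. Any window with a motif was found for 39 of these 41 genes, against 52.4% of the 27305 genes in the table. ACGTG itself was found in 30 of the 41 genes, against 24.9% of all genes. PGAM1 and P4HA2 had neither motif in these windows. Such a match is a description of the letters and does not show binding, and genes with more windows have more chances of a match. Because the members were chosen partly as known HIF targets, their excess over all genes is no independent finding. The 250 bases before the start are printed for 5 members, with each motif in capitals. CA9, LOX and ENO2 carry ACGTG or its reverse complement CACGT and were among the genes with less RNA in the Mig libraries. PFKFB4 was also lower and carries GCGTG alone, and CA12, which had no reads in the library labelled PBS, carries GCGTG as its reverse complement CACGC. The windows are chr9:35673678-35673927 on the plus strand for CA9, chr5:122078260-122078509 on the minus strand for LOX (1 of its 3 windows), chr12:6914330-6914579 on the plus strand for ENO2, chr3:48556804-48557053 on the minus strand for PFKFB4 and chr15:63381847-63382096 on the minus strand for CA12.
CA9: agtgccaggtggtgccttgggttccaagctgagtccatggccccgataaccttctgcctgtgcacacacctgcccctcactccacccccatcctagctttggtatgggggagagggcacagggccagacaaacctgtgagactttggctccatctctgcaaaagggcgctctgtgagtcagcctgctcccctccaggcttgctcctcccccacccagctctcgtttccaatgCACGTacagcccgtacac
LOX: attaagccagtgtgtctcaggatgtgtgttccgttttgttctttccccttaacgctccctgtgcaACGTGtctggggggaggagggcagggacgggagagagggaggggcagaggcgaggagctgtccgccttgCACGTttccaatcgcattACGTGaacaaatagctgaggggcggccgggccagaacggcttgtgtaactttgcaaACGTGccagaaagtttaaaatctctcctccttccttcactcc
ENO2: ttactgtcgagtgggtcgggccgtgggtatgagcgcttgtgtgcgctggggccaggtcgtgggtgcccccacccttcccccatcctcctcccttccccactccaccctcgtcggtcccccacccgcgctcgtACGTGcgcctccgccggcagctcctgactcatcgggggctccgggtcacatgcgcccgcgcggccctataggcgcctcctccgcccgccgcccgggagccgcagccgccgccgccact
PFKFB4: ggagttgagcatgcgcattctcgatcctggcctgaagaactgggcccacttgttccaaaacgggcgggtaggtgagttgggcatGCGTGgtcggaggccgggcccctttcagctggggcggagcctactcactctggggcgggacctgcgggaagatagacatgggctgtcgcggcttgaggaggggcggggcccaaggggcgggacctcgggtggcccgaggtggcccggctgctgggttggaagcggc
CA12: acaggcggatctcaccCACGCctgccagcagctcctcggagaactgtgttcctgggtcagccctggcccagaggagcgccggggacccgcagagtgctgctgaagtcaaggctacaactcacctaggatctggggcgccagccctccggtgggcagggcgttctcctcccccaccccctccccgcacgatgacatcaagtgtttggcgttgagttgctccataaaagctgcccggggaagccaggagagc
In CA9 the motif began 18 bases before the start. Among members with a window, either motif was present in 11 of 11 that were lower in every pair with PBS and in 27 of 29 that were not called in every pair. ACGTG itself was present in 8 of those 11 and in 22 of those 29, so it did not set the lower members apart.

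Reads on genes per library ranged from 33882496 to 40285223, and a member had 3188 reads per library at the median of the members' means. The library labelled PBS stood apart from the 3 Mig libraries. Mitochondrial transcripts took 2.69% of its reads and 5.00% to 5.16% of the reads of the Mig libraries. Markers set to check the cell type did not all fit a hepatocyte: ALB, AFP, APOB, TTR and GPC3 had 0 reads in all 4 libraries, whereas the epithelial keratins KRT8 and KRT18 were abundant. FGB, a fibrinogen chain made by hepatocytes, had 0 reads with PBS and 561, 827 and 832 reads with normo-Migs, hypo-Migs and CD147KO-Migs. The sum of all 16 hepatocyte and HCC markers was 4128 reads scaled to a common library size (CPM) with PBS and 5563 to 6601 CPM with Migs. KRT8 and KRT18 made up most of this sum in every library, with 3059 and 1065 CPM for PBS, so it largely gives the level of these keratins. SERPINA1, another marker of the list, had 25 reads with PBS and 2, 9 and 10 reads with normo-Migs, hypo-Migs and CD147KO-Migs. The summed level of 8 fibroblast markers was 23.6 CPM with PBS and 209 to 221 CPM with Migs. Within this list, PDGFRB had 70 reads with PBS and 1747 to 2446 with Migs, THY1 11 against 1681 to 2082 and COL1A1 681 against 3472 to 4017. DCN had 22 against 77 to 156 and LUM 0 against 49 to 72. COL3A1 went the other way, with 0.782 CPM with PBS and 0.411, 0.673 and 0.571 CPM with normo-Migs, hypo-Migs and CD147KO-Migs, at 14 to 27 reads per library. COL1A2 had at most 2 reads and PDGFRA at most 1. The sum of 6 endothelial markers was 3.42 against 4.34 to 5.57 CPM, and that of 6 leukocyte markers 0.695 against 1.56 to 2.91 CPM. Neither list moved as one. PECAM1 had 16 reads with PBS and 118 to 146 with Migs, while CDH5 had 84 against 30 to 72. VWF and TEK were also lower with Migs, and KDR and TIE1 had at most 2 reads. CD14 had 14 reads with PBS and 47 to 86 with Migs, while CD68 had 6 against 0 to 2. ITGAM and LYZ had at most 8 reads, and CD3E had 0. PTPRC had at most 2 reads. These shifts move with every comparison that involves PBS, and their part in the members' values was not tested. With 1 library of each kind, the absence of Migs and any other way in which the culture behind the library labelled PBS differed from the others cannot be told apart. FGB, LUM and THY1 were at or near 0 in this library alone. Whether it came from the same line of cultures could not be settled from these data, and this holds for every value against PBS given here. In bulk RNA, fewer cells of a type and less RNA per cell cannot be told apart.

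All 45 members were among the 19895 genes tested. With 1 library per treatment, no difference could be set against the spread between cultures. The tests below compare the reads of 2 libraries and not treatments, and every interval covers counting error only, because each treatment had 1 library. Reads were counted and not original RNA molecules, which no molecular identifiers marked. CPM values were scaled by the TMM method. Folds and log2 fold changes hold a prior count of 2 reads, except where a fold is given as at least a value. A gene was called when the adjusted p of edgeR's binomial test was 0.05 or less and the log2 fold change was at least 1 in size.

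Against the library labelled PBS, a larger share of the members than of all genes was called lower in each Mig library, while most members were not called. By sign alone, 32 of the 45 log2 fold changes were below 0 for normo-Migs, as were 31 for hypo-Migs and 33 for CD147KO-Migs. With normo-Migs, 15 of the 45 members (33.3%) were called lower, against 10.7% of all genes tested, and 2 (4.44%) were called higher, against 16.5%. With hypo-Migs, 13 members (28.9%) were lower, against 10.9%, and 2 were higher, against 17.4%. With CD147KO-Migs, 16 members (35.6%) were lower, against 10.9%, and 2 were higher, against 16.6%. The median log2 fold change of the members was -0.53, -0.49 and -0.63 in the same order, beside 0.03, 0.04 and 0.03 for all genes tested. These 3 pairs share the library labelled PBS, so that a deviation of this library enters each of them. The genes called lower in every pair were ADM, ALDOC, ANKRD37, CA9, ENO2, HK2, LOX, MIF, NDRG1, PDK1, PFKFB4, SLC2A1 and ZNF395, and those called higher were CA12 and SLC2A3. INSIG2 and GBE1 were also lower with normo-Migs and CD147KO-Migs, and MXI1 with CD147KO-Migs. When a coefficient of variation of 0.4 between cultures was assumed, 3 members stayed called in each pair (2 higher and 1 lower). Over all genes tested, 7.72%, 8.21% and 7.92% were called at this setting for normo-Migs, hypo-Migs and CD147KO-Migs. Of those calls, 79.3%, 80.1% and 80.7% were higher, so few genes of any kind stayed called lower. DESeq2 with its dispersion taken over the 4 libraries called 0 members and 0 of all genes tested, so its result is not particular to the members.

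**Figure D1:**
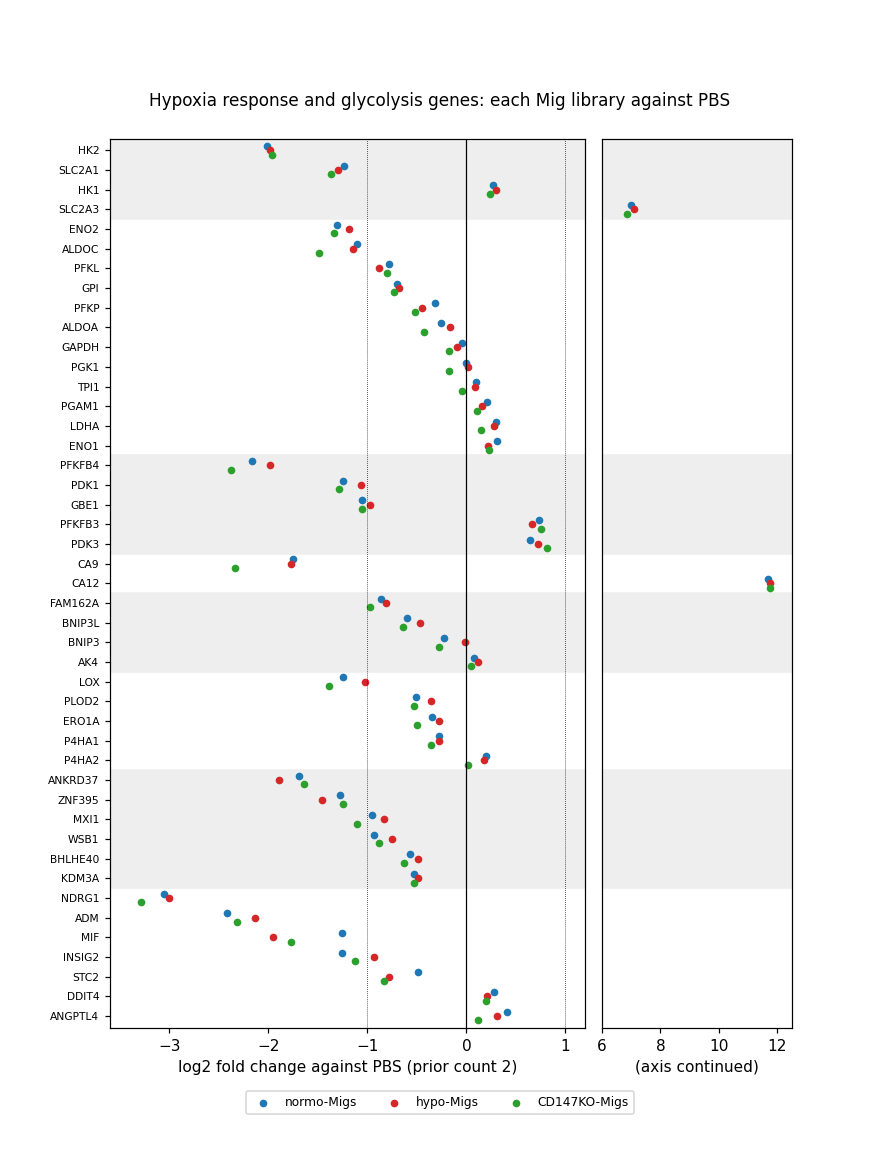
Log2 fold change of each Mig library against the library labelled PBS (horizontal axis, continued on a compressed scale in the right panel) for the 45 members, ordered by role with alternating shading. Dotted lines mark the fold threshold. NDRG1 lies farthest to the left (-3.01 to -3.29), and CA12 and SLC2A3 lie alone in the right panel.

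Among the 4 genes of glucose uptake and hexokinases, the main forms differed between PBS and the Mig libraries. SLC2A1 (chromosome 1, 42925375 to 42959176, minus strand) encodes GLUT1, the basal glucose transporter. Its level was 441 CPM with PBS, then 186 (normo-Migs), 180 (hypo-Migs) and 171 (CD147KO-Migs), which is 2.36- to 2.58-fold lower in the Mig libraries. SLC2A3 (chromosome 12, 7919230 to 7936275, minus strand) encodes GLUT3, a transporter of higher affinity that is typical of neurons. It had 27 reads with PBS and 3639, 4614 and 3421 reads with normo-Migs, hypo-Migs and CD147KO-Migs. Its log2 fold changes against PBS were 6.99 (95% counting interval 6.55 to 7.70), 7.10 (6.66 to 7.80) and 6.87 (6.42 to 7.57). The 3 Mig libraries lay close together and far above PBS. By FPKM, which is scaled for gene length, SLC2A3 made up 0.136% of the sum of SLC2A1 and SLC2A3 with PBS and 30.5% to 32.9% with Migs.

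HK2 (chromosome 2, 74833981 to 74893359, plus strand), the inducible hexokinase that traps glucose in tumor cells, was at 437 CPM with PBS and at 108, 110 and 112 CPM with normo-Migs, hypo-Migs and CD147KO-Migs. The difference from PBS was 3.90- to 4.05-fold. HK1, the constitutive form, was at 162 CPM with PBS and 192 to 199 CPM with Migs and was not called. HK2 made up 73.7% of the FPKM of both hexokinases with PBS (95% counting interval 73.1 to 74.3) and between 36.5% and 37.8% with Migs. The larger of the 2 hexokinase levels was HK2 with PBS and HK1 in each Mig library. Of these 4 uptake genes, 1 (25%) was higher and 2 (50%) were lower in each pair with PBS. Over all genes tested, 16.5% to 17.4% were higher and 10.7% to 10.9% lower.

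The 12 enzymes from glucose 6-phosphate to lactate held 2 called members, ENO2 and ALDOC, both known as forms of nervous tissue. Both were lower in each pair with PBS, which is 16.7% of the 12, against 10.7% to 10.9% of all genes tested. In a group of this size, 2 calls lie near that share. None of the 12 was called higher, against 16.5% to 17.4%. ENO2, the neuronal enolase, was at 134 CPM with PBS, then 54.1 (normo-Migs), 58.5 (hypo-Migs) and 52.9 (CD147KO-Migs). ALDOC, the brain aldolase, was at 67.1, 31.2, 30.3 and 23.9 CPM in the same order. Their log2 fold changes against PBS lay between -1.19 and -1.34 for ENO2 and between -1.11 and -1.49 for ALDOC. The main enolase, ENO1, was at 4496 CPM with PBS and 5560, 5219 and 5248 CPM with Migs. By FPKM, ENO2 was 3.53% of both enolases with PBS and 1.18% to 1.36% with Migs, so the summed enolase level was set by ENO1 in every library.

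GAPDH, which oxidizes glyceraldehyde 3-phosphate, was the most abundant member with PBS by FPKM. Its FPKM was 1082 with PBS, then 1043 (normo-Migs), 1007 (hypo-Migs) and 952 (CD147KO-Migs). The counting intervals of the log2 fold change against PBS excluded 0 in each case, but the largest difference was -0.17. LDHA, which turns pyruvate into lactate, was at 2929 CPM with PBS and 3599, 3553 and 3247 CPM with normo-Migs, hypo-Migs and CD147KO-Migs, a log2 fold change of 0.15 to 0.30. ENO1, LDHA and PGAM1 were thus slightly higher in each Mig library than with PBS, and GAPDH slightly lower. PGK1 and TPI1, the other enzymes of the lower pathway, stayed between -0.17 and 0.10. Upstream of these, PFKL was 1.72- to 1.84-fold lower, GPI had log2 fold changes of -0.68 to -0.73 and PFKP of -0.32 to -0.52, and none passed the fold threshold. The summed FPKM of the 12 enzymes was 3540 with PBS, then 3754 (normo-Migs), 3634 (hypo-Migs) and 3449 (CD147KO-Migs). PKM, the pyruvate kinase of tumor cells and no member, was at 556 FPKM with PBS and 326 to 354 FPKM with Migs and was not called.

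**Figure D2:**
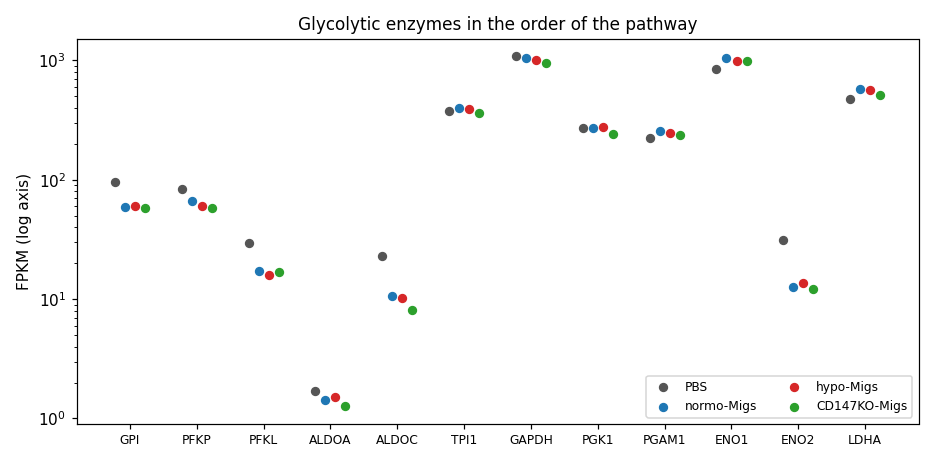
FPKM of the 12 glycolytic enzymes (vertical axis, log scale) in the 4 libraries, 1 point per library, in the order of the pathway. GAPDH and ENO1 lead in every library, whereas ALDOC and ENO2 are lower in the 3 Mig libraries than with PBS.

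ALDOA, the main aldolase of most tissues, had only 175 to 240 reads per library and 1.26 to 1.71 FPKM. Of its exonic bases, 53.5% are shared with other annotated genes, 42.3% with AC093512.2 on the same strand. Reads that cannot be assigned to 1 gene may be dropped in counting, so the level of ALDOA is given as uncertain. The same holds for MIF, a secreted cytokine with 26 to 92 reads, whose exons overlap MIF-AS1 over 61.9% of their length. In all, 8 members share over 10% of their exonic bases with another gene.

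Among the 5 regulators of flux and glycogen, the balance between paralogs differed between PBS and the Mig libraries. PFKFB4 (chromosome 3, 48517684 to 48562015, minus strand) and PFKFB3 make fructose 2,6-bisphosphate, the activator of phosphofructokinase. PFKFB4 was at 81.2 CPM with PBS and 18.1, 20.5 and 15.6 CPM with normo-Migs, hypo-Migs and CD147KO-Migs, a 3.96- to 5.21-fold difference. PFKFB3 was at 35.6 CPM with PBS and 56.5 to 60.3 CPM with Migs, and its log2 fold changes of 0.66 to 0.76 did not reach the threshold. The share of PFKFB4 in the FPKM of both was 69.5% with PBS and 23.4%, 26.6% and 20.5% with Migs.

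PDK1, a HIF target that closes the entry of pyruvate into mitochondria, was at 59.7 CPM with PBS and 25.2, 28.5 and 24.5 CPM with Migs, 2.09- to 2.44-fold lower. PDK3, a kinase of the same kind, was at 15.4 CPM with PBS and 24.1, 25.6 and 27.0 CPM with Migs and was not called. Its share of the FPKM of both was 43.7% with PBS and between 72.9% and 76.9%. A further kinase, PDK4, is induced by fasting and is no member. It had 824 reads with PBS and 13845, 18085 and 13540 reads with Migs, 16.2- to 18.8-fold more. GBE1, the glycogen branching enzyme, lay at the threshold, with log2 fold changes of -1.05, -0.98 and -1.05.

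**Figure D3:**
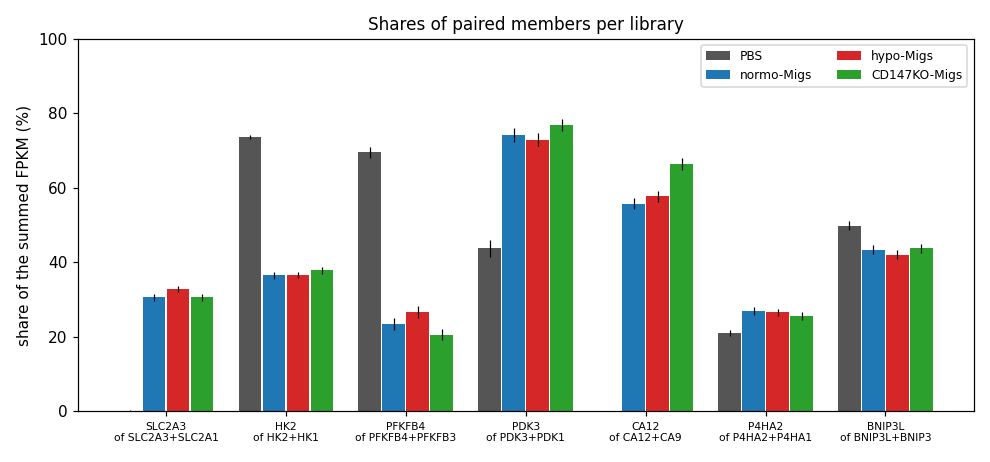
Share of 1 member in the summed FPKM of a pair of related members (vertical axis, percent) in each of the 4 libraries, with 95% counting intervals as error bars. In every pair shown the 3 Mig libraries stand on the same side of PBS, far from it for SLC2A3, HK2, PFKFB4, PDK3 and CA12. For P4HA2 and BNIP3L the distance is a few percentage points.

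Both members of pH control were called, in opposite directions, in each pair with PBS, where 27.2% to 28.3% of all genes tested were called in either direction. CA9 and CA12 are membrane carbonic anhydrases that turn CO2 into bicarbonate and protons outside the cell. CA9 (chromosome 9, 35673856 to 35681159, plus strand) is among the most used markers of tumor hypoxia. It had 111 CPM with PBS and 32.8, 32.3 and 21.9 CPM with normo-Migs, hypo-Migs and CD147KO-Migs, and its log2 fold changes against PBS were -1.75, -1.78 and -2.33. CA12 (chromosome 15, 63321378 to 63382161, minus strand) had 0 reads with PBS and 6173, 7732 and 6653 reads with Migs. With 3 reads allowed for the count of 0 in the PBS library, CA12 was at least 2084-, 2216- and 2186-fold higher with normo-Migs, hypo-Migs and CD147KO-Migs. No Mig library came near PBS for this gene. CA12 made up 55.7%, 57.7% and 66.4% of the FPKM of the pair in the Mig libraries.

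Among genes of secretion and stress, NDRG1 had the most negative log2 fold changes of all members. NDRG1 is a differentiation-related gene that hypoxia and metal chelation induce. It was at 1194 CPM with PBS and at 144, 148 and 122 CPM with normo-Migs, hypo-Migs and CD147KO-Migs, 8.31-, 8.04- and 9.75-fold lower. ADM (chromosome 11, 10304680 to 10307397, plus strand) encodes adrenomedullin, a vasodilator peptide, and was at 86.1, 16.1, 19.5 and 17.3 CPM in the same order. Its log2 fold changes were -2.42, -2.14 and -2.31. INSIG2, which retains the sterol sensor SCAP in the endoplasmic reticulum, was at 46.2 CPM with PBS and 19.3, 24.2 and 21.2 CPM with Migs. With hypo-Migs its log2 fold change of -0.93 missed the threshold. STC2, a secreted glycoprotein, was at 163, 116, 94.7 and 91.0 CPM and was not called. DDIT4, an inhibitor of mTORC1, and ANGPTL4, an inhibitor of lipoprotein lipase, had positive log2 fold changes of 0.12 to 0.41 in every Mig library. Hence the HIF targets in this group did not move as one: 3 were called lower in all pairs (NDRG1, ADM and MIF), while DDIT4 and ANGPTL4 lay slightly above PBS. With hypo-Migs these 3 were 42.9% of the 7 genes, against 10.9% of all genes tested. With INSIG2, 57.1% were lower with normo-Migs and with CD147KO-Migs, against 10.7% and 10.9%.

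LOX (chromosome 5, 122063195 to 122078360, minus strand), which crosslinks collagen, was at 114 CPM with PBS and 48.2, 55.9 and 43.5 CPM with normo-Migs, hypo-Migs and CD147KO-Migs. It was 2.04- to 2.62-fold lower and the only called gene of the 5 for collagen modification and protein folding. That is 20% called lower, against 10.7% to 10.9% of all genes tested. PLOD2, ERO1A and P4HA1 had log2 fold changes from -0.27 to -0.53, and P4HA2 from 0.01 to 0.20. The 4 members for mitochondria and nucleotides held 0 calls in each pair with PBS, where 27.2% to 28.3% of all genes tested were called in either direction. BNIP3, a mitophagy receptor, was at 135 CPM with PBS and 115, 133 and 111 CPM with Migs. AK4 lay within 0.12 of PBS, FAM162A between -0.82 and -0.97, and BNIP3L, the relative of BNIP3, between -0.47 and -0.64.

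All 6 members for transcription, chromatin and ubiquitin had negative log2 fold changes in each pair with PBS. ANKRD37, an early HIF target, had 210 reads with PBS and 63, 64 and 67 reads with Migs, with log2 fold changes of -1.69, -1.90 and -1.64. Its exons overlap UFSP2 on the opposite strand over 35.2% of their length, and UFSP2 had 190 reads with PBS and 380 to 483 with Migs. ZNF395, a transcription factor, was at 45.1 CPM with PBS and 18.5, 16.4 and 18.99 CPM with Migs. It shares 34.9% of its exonic bases with FBXO16 on the same strand, where reads may be dropped in counting. FBXO16 had 79 reads with PBS and 79 to 125 with Migs. MXI1, an antagonist of MYC, had log2 fold changes of -0.95, -0.83 and -1.11. WSB1, BHLHE40 and KDM3A were between -0.49 and -0.94.

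Between pairs of Mig libraries, the question was whether Migs from hypoxic donors, or from donors with CD147, left another level of these genes in the recipient cells. Normo-Migs and CD147KO-Migs differ in both the oxygen and the CD147 of the donors, and in that pair these cannot be told apart. By the criteria, 0 of the 45 members were called in any of the 3 pairs. Over all genes tested, 2.56% were higher and 2.34% lower with hypo-Migs than with normo-Migs. For hypo-Migs against CD147KO-Migs these shares were 2.57% and 2.47%, and for normo-Migs against CD147KO-Migs 2.36% and 2.55%. The log2 fold changes of 43 of the 45 members stayed within 0.5 in every such pair, with CA9 and MIF as the exceptions. A lower fold threshold of 1.5 also gave 0 called members, against 6.80%, 7.25% and 6.82% of all genes tested in the order of these pairs.

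Smaller differences were counted at any fold among genes whose reads averaged 500 or more over the pair, a rule chosen after seeing the data, which 42 members met. With hypo-Migs, 14 members (33.3%) were higher than with normo-Migs by adjusted p alone, against 13.9% of all such genes, and 8 (19.05%) were lower, against 19.7%. Against CD147KO-Migs, 27 members (64.3%) were higher with hypo-Migs, against 16.4% of all such genes, and 2 (4.76%) were lower, against 16.5%. With normo-Migs, 21 members (50%) were higher than with CD147KO-Migs, against 20.1%, and 1 was lower, against 13.7%. The members have more reads than most genes, which lets the test see smaller differences. The median log2 fold changes of all 45 members were small, at 0.03, 0.13 and 0.08 in the order of these pairs. The 3 pairs share libraries, the last of them with both others. These counts rest on counting error alone: with an assumed coefficient of variation of 0.1, 0 members were higher in each of the 3 pairs. The share of all such genes at this setting is not given here, so the loss is not shown to be particular to the members. With the fold threshold added, 1.30%, 1.15% and 1.41% of all genes tested stayed called in either direction at this setting.

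**Figure D4:**
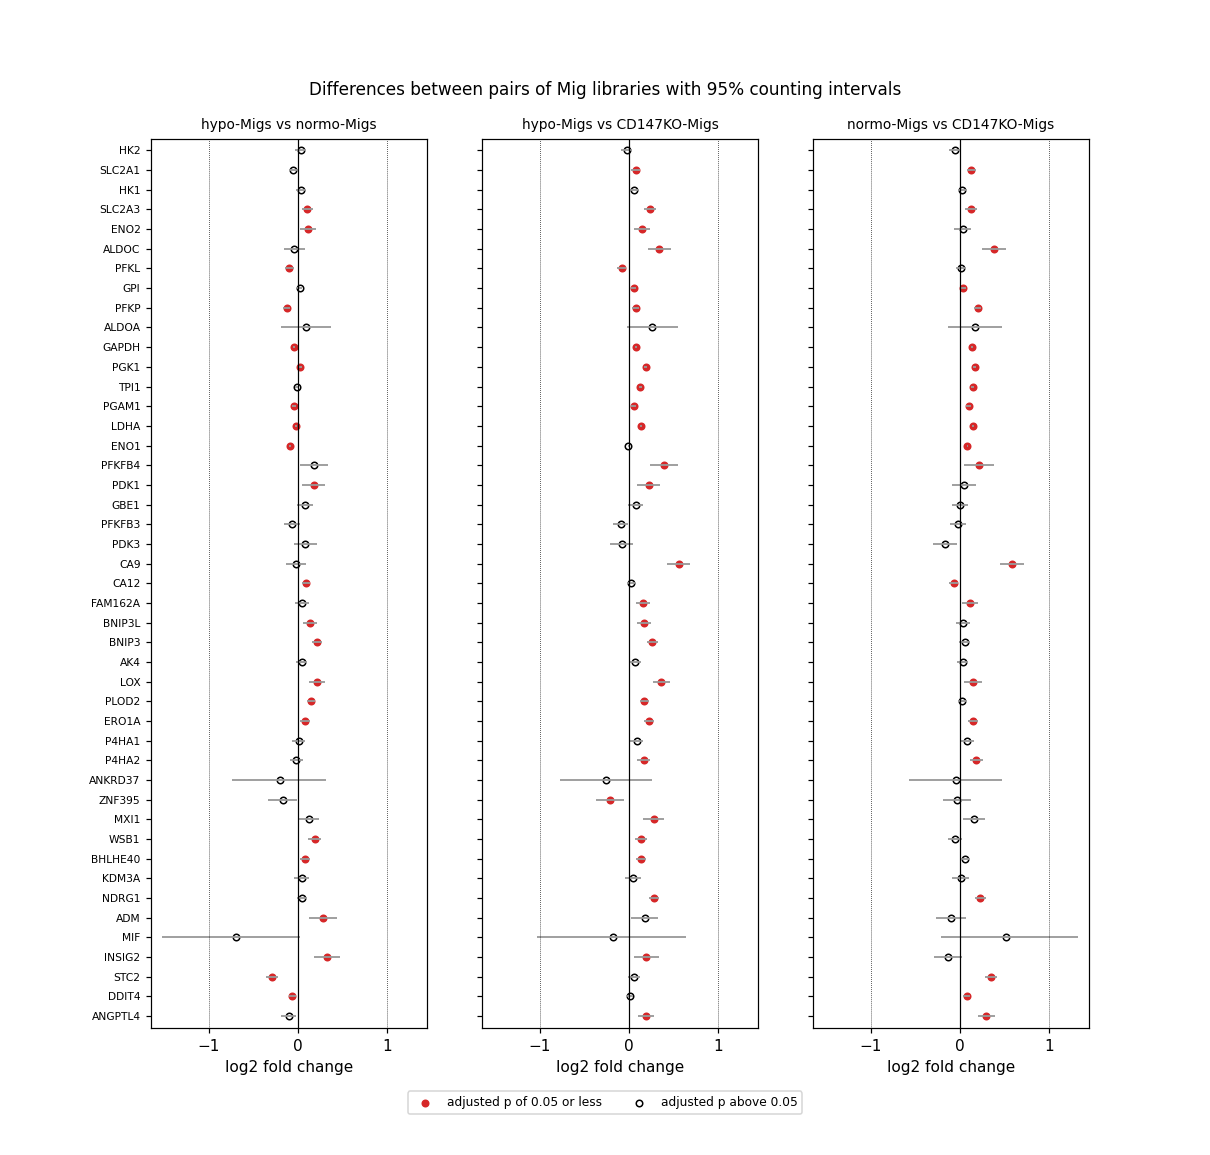
Log2 fold change between pairs of Mig libraries (horizontal axis, 1 panel per pair) for the 45 members, with 95% counting intervals as bars and filled points for an adjusted p of 0.05 or less in edgeR's binomial test. No point lies beyond the dotted lines of the fold threshold, and in the middle panel 37 of the 45 points lie above 0.

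Among members with an adjusted p of 0.05 or less and a mean of 50 reads or more in the pair, hypo-Migs differed most from normo-Migs in INSIG2, STC2, ADM and LOX. MIF, with 26 reads against 37, had a larger log2 fold change of -0.70, but its counting interval included 0 (-1.53 to 0.02). INSIG2 was at 24.2 CPM with hypo-Migs and 19.3 with normo-Migs, a log2 fold change of 0.33 (95% counting interval 0.18 to 0.47). STC2 was lower with hypo-Migs, at 94.7 against 116 CPM, with a log2 fold change of -0.29 (-0.36 to -0.23). ADM followed with 0.28 (0.12 to 0.44), and LOX with 0.21 (0.12 to 0.31). BNIP3 and PDK1, common readouts of HIF activity, were at 0.21 (0.15 to 0.27) and 0.18 (0.05 to 0.31). CA9 and NDRG1 were at -0.02 (-0.14 to 0.09) and 0.05 (-0.01 to 0.10), differences not detectable at this depth. Of the 12 glycolytic enzymes, 8 were below 0, with TPI1 and ALDOC among them at -0.01 and -0.04 and within counting error, and the most negative value was -0.13 for PFKP. PGK1 and ENO2 were above 0, at 0.02 and 0.11, with an adjusted p of 0.05 or less.

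CA9 was lower with CD147KO-Migs than in either other Mig library. Relative to CD147KO-Migs, its log2 fold change was 0.56 (0.43 to 0.69) for hypo-Migs and 0.58 (0.45 to 0.72) for normo-Migs. Over the exons of CA9, 38.5% of bases overlap ARHGEF39 on the opposite strand, which had 865, 734 and 740 reads with hypo-Migs, normo-Migs and CD147KO-Migs beside 1297, 1119 and 768 for CA9. The adjusted p was 1.3e-15 for hypo-Migs and 3.75e-16 for normo-Migs in edgeR's exact binomial test. With an assumed coefficient of variation of 0.1 it was 0.215 and 0.189 by edgeR's exact test, and over all alternatives that gave one it reached 1.

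PFKFB4 (0.39, 0.24 to 0.56), LOX (0.36, 0.27 to 0.46) and ALDOC (0.34, 0.21 to 0.47) came next to CA9 by log2 fold change when hypo-Migs were set against CD147KO-Migs. Where normo-Migs were set against CD147KO-Migs, ALDOC (0.38, 0.25 to 0.52), STC2 (0.35, 0.28 to 0.42) and ANGPTL4 (0.30, 0.20 to 0.39) did so. Both orders are over members that passed the same limits on adjusted p and reads, and MIF, at 0.52 (-0.21 to 1.33) in the latter pair, did not pass them. NDRG1 was at 0.28 with hypo-Migs and 0.23 with normo-Migs. Of the 12 glycolytic enzymes, 10 were above 0 for hypo-Migs and 12 for normo-Migs, with LDHA at 0.13 and 0.15 and GAPDH at 0.08 and 0.13. HK2 was at -0.02 and -0.05, both within counting error.

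Other hypoxia-responsive genes, a list of 36 that holds no member, were counted by the same criteria against PBS. This list was chosen with earlier results of these data known, so it is no independent check of the members. Of 35 tested, 9 were lower and 4 higher with normo-Migs, 11 and 5 with hypo-Migs, and 9 and 4 with CD147KO-Migs. The genes called lower were 25.7%, 31.4% and 25.7% of the list, against 10.7%, 10.9% and 10.9% of all genes tested. Those called higher were 11.4%, 14.3% and 11.4%, against 16.5%, 17.4% and 16.6%. VEGFA, the angiogenic growth factor, had 9734 reads with PBS and 4414, 5324 and 4224 with Migs. IGFBP3, which binds insulin-like growth factors, had 12928 reads with PBS and 1870, 2401 and 1429 with Migs. STC1 went the other way, with 62 reads against 1737, 2116 and 1574. Between Mig libraries, 0 of these genes were called in any of the 3 pairs.

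The sensors and subunits of the HIF system gave 2 calls higher in each pair with PBS and 1 lower in a single pair. HIF1A had 91.9 FPKM with PBS, then 81.2 (normo-Migs), 92.1 (hypo-Migs) and 89.7 (CD147KO-Migs). EPAS1, which encodes HIF2 alpha, was at 24.0 FPKM with PBS and 43.6 to 46.0 FPKM with Migs, and was not called. EGLN1, the main oxygen sensor and itself a HIF target, was at 27.2 FPKM with PBS and 13.3 to 13.9 with Migs, called lower with CD147KO-Migs. ARNT2 and the scarcely detected HIF3A were called higher in each pair with PBS, which is 20% of the 10 genes against 16.5% to 17.4% of all genes tested, and the 1 gene called lower with CD147KO-Migs is 10%, against 10.9%. Between Mig libraries, 0 of the 10 were called. HIF activity is set largely by the stability of the alpha subunits, which RNA does not show.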

How the data were processed

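RNA-seq was performed on MHCC-97H cells, 1 library per treatment. Per the submitters' processing notes, CASAVA 1.8, fastp, HISAT2 2.0.5, featureCounts 1.5.0-p3 and the build hg38 were used, and the handling of strands is not given in the sources used here. The labels name a SMARTer kit, whereas the supplementary methods describe poly-T beads and random hexamers. The authors deposited raw counts per gene and FPKM, the latter scaled by gene length and library size. Gene models were those of GENCODE 29, and lengths equalled its exon unions for all 45 members.

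The 19895 genes that reached 10 reads in any library were kept, and libraries were scaled by TMM. Reads of 2 libraries were compared by edgeR's two-sided binomial test (edgeR 4.0.16, R 4.3.3), which is exact up to 10000 reads in a pair and a chi-square test above, with Benjamini-Hochberg adjustment over all genes tested. DESeq2 1.42.0 served as an alternative. A prior count of 2 was added for log2 fold changes. Criteria were an adjusted p of 0.05 and a log2 fold change of 1. Intervals of 95% are exact and cover counting error only. A count of 0 was allowed 3 reads. Python 3.11.15 with numpy 2.4.6, pandas 2.3.3, scipy 1.17.1 and matplotlib 3.10.9 made the summaries. Pseudogene reads were below 1% of the parent gene for each member examined.

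Genes described in full were members called in the same direction in all pairs with PBS (at most 10 each way by mean log2 fold change), up to 4 per pair of Mig libraries with the largest absolute log2 fold change among those with an adjusted p of 0.05 or less and a mean of at least 50 reads in the pair, those with almost no reads in a library, the 3 of highest FPKM, and GAPDH, CA9, SLC2A1, LDHA, PDK1 and BNIP3. Further members are given by range, and those singled out with levels (HK1, PFKFB3, PDK3 and others) were picked as partners or after their values were seen. The members, the lists and the markers were chosen with earlier results of these data known. Promoter windows came from RefSeq (GRCh38.p14). No Western blot, imaging or animal data were analysed here.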

Additional observations from a re-analysis of the deposited data

How the results depend on the processing

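No paired analysis was possible because each treatment had 1 library, which also prevented leaving out a replicate. The numbers of members called against PBS were 17, 15 and 18 for normo-Migs, hypo-Migs and CD147KO-Migs. They were 3, 3 and 3 with an assumed coefficient of variation of 0.4. DESeq2 over the 4 libraries gave 0, 0 and 0, as it did over all genes tested. With a fold threshold of 1.5 the number for hypo-Migs was 25 of the 45 members, while 42.3% of all genes tested were called. The members higher at any fold between Mig libraries (14, 27 and 21) were 0, 0 and 0 with assumed coefficients of variation of 0.1 or 0.4 and with DESeq2. Shares of all genes higher at any fold are not given for these settings, so this loss is not shown to be particular to the members. Scaling, the filter and the prior count moved none of the counts of members by more than 1.5 times. Over all genes, the calls between Mig libraries (1003 for hypo-Migs against CD147KO-Migs) were 216 when 10 reads were required in every library, 80 on log2(FPKM + 1), 228 and 1 with assumed coefficients of variation of 0.1 and 0.4, 0 with DESeq2 and 1814 by fold alone. For hypo-Migs against PBS, 5636 calls became 2744, 1674, 5260, 1633, 0 and 6067 under the same settings. The cause was not tested.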

Other observations

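The liver glucose transporter SLC2A2 had 0 reads in all 4 libraries, and PKLR, the liver pyruvate kinase, had 4 reads at most. G6PC, which releases glucose from glucose 6-phosphate, had 0 reads in every library, and PCK1, the cytosolic carboxykinase of gluconeogenesis, had 2 to 18. PCK2, the mitochondrial carboxykinase, was at 32.3 CPM with PBS and 56.8, 59.1 and 59.6 CPM with normo-Migs, hypo-Migs and CD147KO-Migs. PC, the pyruvate carboxylase, was at 139, 170, 193 and 233 CPM in the same order. FBP2, a muscle fructose bisphosphatase, passed the criteria between Mig libraries, with 32 reads for hypo-Migs, 3 for normo-Migs and 8 for CD147KO-Migs.

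Of the 23 isoenzymes and related genes outside the members, 16 could be tested. PDK4 was higher in each pair with PBS, and HKDC1, a hexokinase relative, was lower with normo-Migs (448 against 973 reads). With CD147KO-Migs, ENO3 (797 against 391 reads) and SLC2A4 (77 against 34 reads) were higher as well. SLC16A1 and SLC16A3 carry lactate across the plasma membrane, and neither was called. SLC16A1 was at 49.4 FPKM with PBS and 55.2, 53.6 and 54.7 FPKM with normo-Migs, hypo-Migs and CD147KO-Migs. SLC16A3 was at 93.5, 74.2, 66.1 and 72.2 FPKM in the same order. TXNIP, an arrestin-like gene that follows glucose supply and lowers glucose uptake, was 4.17-, 4.19- and 4.17-fold lower than with PBS for normo-Migs, hypo-Migs and CD147KO-Migs. TFRC, the transferrin receptor, was at 203 FPKM with PBS and 284 to 316 FPKM with Migs.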
